A study of Sus scrofa with 4 samples.

Results

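The HOX cluster genes were examined in lung cells of pigs. The animals carry the LGR5-H2B-GFP knock-in, whose green fluorescent histone reports transcription of LGR5. The 28 genes described were all rows of the deposited count tables whose name is HOX, a cluster letter from A to D and a number, out of 29263 genes. The name alone decides which genes are included. Sorted cells with bright fluorescence (GFP-HI, 2 biological replicates) were compared with cells without fluorescence (GFP-NEG, 2 biological replicates). All 4 libraries carry the same knock-in genotype and come from lung, and no group without the knock-in was analysed here. The labels describe adult and fetal lung together and give neither the stage, the age nor the antibody gate of these libraries, and the only statement of stage is the words adult pig in the name of the authors' comparison table.

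HOX genes encode homeodomain transcription factors and lie in the genome as clusters named A, B, C and D. Genes of the same number in different clusters are paralogs, and the number gives the place of a gene in its cluster, from the 3′ end (low numbers) to the 5′ end (high numbers). In the embryo, low-numbered genes act toward the head and high-numbered genes toward the tail, the distal limb and the genital tract, and cells of adult connective tissue often keep such a pattern. In the mouse, Hoxa5 and Hoxb5 are known for their part in the growth and branching of the lung, where they are transcribed in the mesenchyme. The members are described below as anterior (numbers 1 to 3, 8 genes), central (4 to 8, 9 genes) and posterior (9 to 13, 11 genes).

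LGR5 itself was counted 3218 and 3073 times in GFP-HI against 10 and 7 times in GFP-NEG, as the labels of the fractions state. The GFP-HI libraries held 24200550 and 24689986 counts in all and the GFP-NEG libraries 6292253 and 7045652. Depth and group cannot be told apart. Despite the lower depth, more genes had at least 1 count in GFP-NEG (24120 and 25985) than in GFP-HI (18752 and 18392). Levels are given as CPM, counts scaled to library depth with edgeR's TMM factors. One count was worth 0.0453 and 0.0496 CPM in the GFP-HI libraries and 0.155 and 0.110 CPM in the GFP-NEG libraries. CPM is not divided by gene length, so different HOX genes are not ranked against each other.

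Among the 28 members, those on in GFP-HI were anterior and central genes of clusters A and B, and cluster D was at or near 0. A member was called on in a group when both libraries had at least 1 CPM. By this rule 8 of the 28 members were on in GFP-HI: HOXA2, HOXA3, HOXA5, HOXA7, HOXB2, HOXB5, HOXB6 and HOXB7. Of the 11 posterior members and the 9 members of cluster D, 0 were on in GFP-HI. In GFP-NEG 8 members were also on, but only HOXA3, HOXA5 and HOXB5 were on in both groups. The genes on in GFP-NEG and not in GFP-HI included HOXA10, HOXA13, HOXB9 and HOXD10. Over all 29263 genes, 45.3% were on in GFP-HI and 59.4% in GFP-NEG by the same rule.

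**Figure D1:**
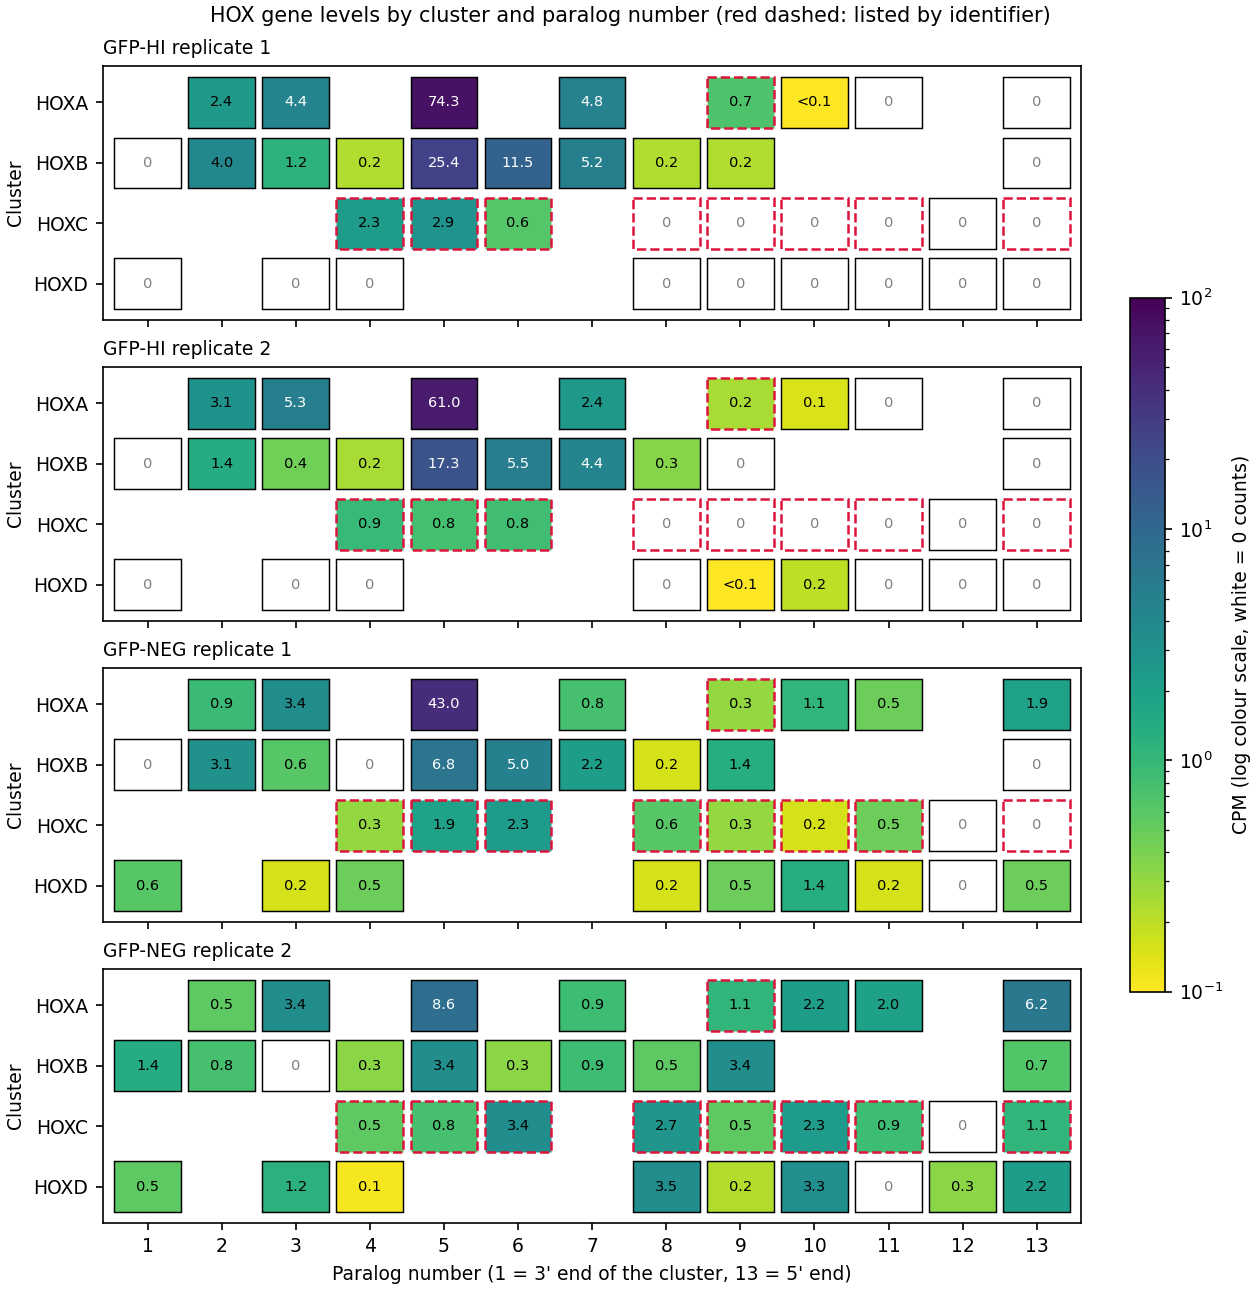
CPM of each HOX gene in each of the 4 libraries (panels), by cluster (rows) and paralog number (columns), with darker squares for higher CPM on a log colour scale and white for 0 counts. Red dashed squares are the 9 HOX genes listed only by an identifier, and places without a square are not reported here. Cluster D is almost empty in both GFP-HI libraries, while most of its genes have counts in GFP-NEG. HOXA5 is at 43.0 CPM in GFP-NEG replicate 1 and 8.55 CPM in replicate 2.

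The summed CPM by range shows the same layout. The central members summed to 122 and 91.0 CPM in the GFP-HI libraries and to 58.5 and 18.5 CPM in the GFP-NEG libraries. The central genes took 90.2% and 88.8% of the summed CPM of the 28 members in GFP-HI. In GFP-NEG they took 77.1% in replicate 1 and 36.6% in replicate 2, so the GFP-NEG replicates differed from each other as well. HOXA5 alone gave 74.3 and 61.0 CPM of the central sums in GFP-HI, and 43.0 and 8.55 CPM in GFP-NEG, so the shares largely follow this gene. As CPM is not divided by gene length, the shares serve to compare libraries and not ranges. The anterior members summed to 12.0 ± 1.28 CPM in GFP-HI and to 10.9 ± 1.08 CPM in GFP-NEG (SD, n = 2), and the groups overlapped. The posterior members summed to 0.317 and 0.397 CPM in GFP-HI and to 7.30 and 20.5 CPM in GFP-NEG. By cluster, the 8 genes of cluster A summed to 86.9 and 72.7 CPM in GFP-HI and 52.8 and 27.5 CPM in GFP-NEG. The 10 genes of cluster B summed to 47.9 and 29.5 CPM in GFP-HI and 19.3 and 11.7 CPM in GFP-NEG. The 9 genes of cluster D summed to 0 and 0.248 CPM in GFP-HI and to 3.88 and 11.4 CPM in GFP-NEG.

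Differences between groups were tested with edgeR's quasi-likelihood test over all 19682 genes that passed its filter on low counts, and p-values were adjusted over all of them by the Benjamini-Hochberg method. The main fit left out this pairing by pig, and an alternative fit took it in, with the replicate number as a block. Of the 28 members, 13 passed the filter and 15 did not. At an adjusted p under 0.05, 2 members (HOXA5 and HOXB5) were higher and 4 (HOXA10, HOXA13, HOXB9 and HOXD10) were lower in GFP-HI. Over all tested genes, 36% were called, with 8.35% higher and 27.6% lower in GFP-HI. The 4 members called lower make up 30.8% of the 13, a share close to that of all genes. The 2 called higher make up 15.4%. The groups did not overlap for 7 tested members with GFP-HI above and 5 with GFP-HI below, against 27.7% and 42% of all tested genes. All 4 members called lower passed the filter through their GFP-NEG libraries alone, so they had to differ, and their count is no evidence about posterior genes.

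**Figure D2:**
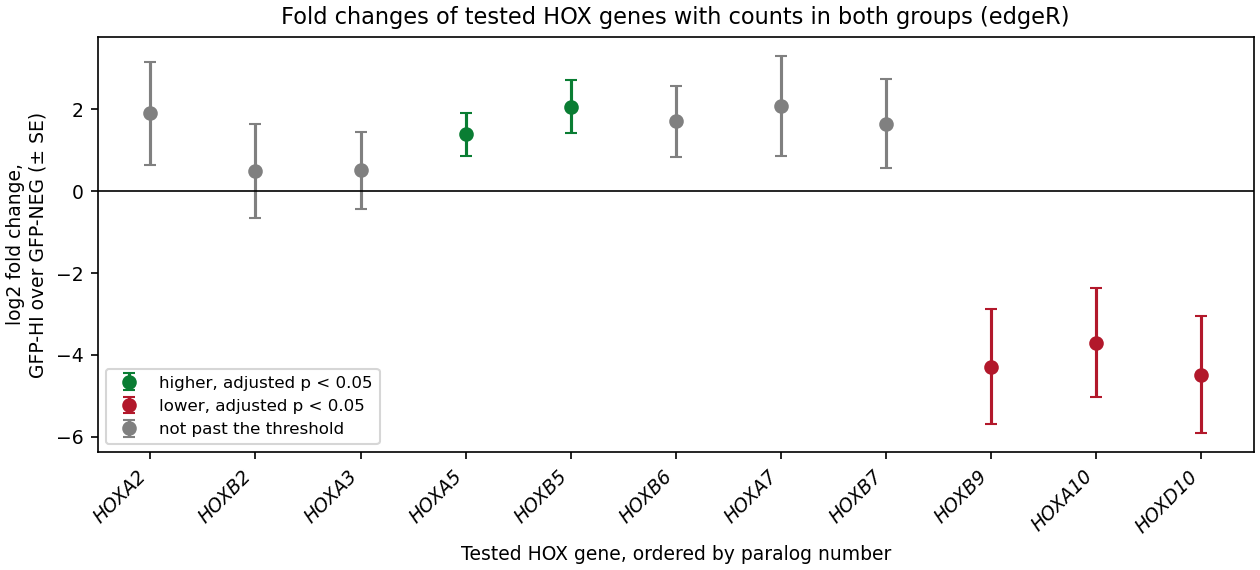
Log2 fold change of GFP-HI over GFP-NEG with its standard error (edgeR, 2 libraries in each group) for 11 tested HOX genes with counts in both groups, ordered by paralog number; HOXA13, with 0 counts in GFP-HI, is left out. HOXA5 (1.40) and HOXB5 (2.07) lie above 0 past the threshold, and HOXB9, HOXA10 and HOXD10 lie below -3.

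HOXA5, the central gene of cluster A best known from the lung, was at 74.3 and 61.0 CPM in the GFP-HI libraries and at 43.0 and 8.55 CPM in GFP-NEG replicates 1 and 2. Both GFP-HI libraries were above both GFP-NEG libraries, but the GFP-NEG replicates lay far apart. The means were 67.6 ± 9.42 and 25.8 ± 24.4 CPM (SD, n = 2 in each), a ratio of 2.62. On the log2 scale GFP-HI was 1.40 ± 0.52 (SE) above GFP-NEG, with an adjusted p of 0.024 (edgeR). This call depended on the setting. The adjusted p was 0.093 with scaling by library size alone, 0.061 with upper-quartile scaling, 0.11 under DESeq2 and 0.0099 with the replicate number as a block (edgeR elsewhere). The log2 fold change was 3.03 without GFP-NEG replicate 1 (adjusted p of 0.0022) and 0.62 without GFP-NEG replicate 2 (adjusted p of 0.75), so the GFP-NEG library used decided its size. The call was also lost without GFP-HI replicate 1 (0.17) or GFP-HI replicate 2 (0.13).

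HOXB5, its paralog in cluster B, was at 25.4 and 17.3 CPM in GFP-HI and at 6.83 and 3.40 CPM in GFP-NEG. The groups did not overlap, and the lower GFP-HI library was well above the higher GFP-NEG library. The means were 21.3 ± 5.77 and 5.11 ± 2.43 CPM (SD, n = 2), a ratio of 4.17. On the log2 scale HOXB5 was 2.07 ± 0.64 (SE) above GFP-NEG (adjusted p of 0.0051, edgeR). HOXB5 kept its call in 10 of 12 alternative fits, which included DESeq2 (adjusted p of 0.012) and each other scaling. It lost it without GFP-HI replicate 1 (1.88, adjusted p of 0.079) and without GFP-NEG replicate 2 (1.60, adjusted p of 0.24).

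The next genes toward the 5′ end, HOXB6, HOXB7 and HOXA7, also had higher levels in both GFP-HI libraries than in either GFP-NEG library, without passing the threshold. HOXB6 was at 11.5 and 5.45 CPM in GFP-HI and at 4.97 and 0.329 CPM in GFP-NEG. Its lowest GFP-HI value was only just above its highest GFP-NEG value. HOXB6 differed by 1.71 ± 0.87 (SE) on the log2 scale (adjusted p of 0.12, edgeR), and with the replicate number as a block it was 2.33 with an adjusted p of 0.020. It was 4.70 without GFP-NEG replicate 1 (adjusted p of 0.0025) and 0.73 without GFP-NEG replicate 2. HOXB6 passed the filter through its GFP-HI libraries, the group where it is high, with 1 GFP-NEG library under the cutoff, so its p-values support no difference on their own. HOXB7 was at 5.16 and 4.36 CPM against 2.17 and 0.877 CPM, with a log2 fold change of 1.66 ± 1.08 (SE, adjusted p of 0.24, edgeR). HOXA7 was at 4.76 and 2.38 CPM against 0.776 and 0.877 CPM, with a log2 fold change of 2.10 ± 1.22 (SE, adjusted p of 0.18, edgeR). The GFP-NEG values of HOXA7 rest on 5 and 8 counts.

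The remaining central members were low in both groups and were not tested. For HOXB4 the GFP-HI counts were 5 and 5 against 0 and 3 in GFP-NEG, and for HOXB8 they were 5 and 7 against 1 and 5. These are neighbours of HOXB5, HOXB6 and HOXB7 in the same cluster. HOXD4 and HOXD8 had 0 counts in both GFP-HI libraries, and HOXD8 had 1 and 32 counts in GFP-NEG, nearly all of them in replicate 2. HOXD8 was under the edgeR filter, and DESeq2 called it lower in GFP-HI (adjusted p of 0.0076). As HOXD8 was counted in GFP-NEG alone, the group where it is high, this p-value supports no difference on its own. HOXD4 had 3 and 1 counts in GFP-NEG. A count of 0 allows up to 3 counts, which is 0.136 and 0.149 CPM in the GFP-HI libraries (counting error only).

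**Figure D3:**
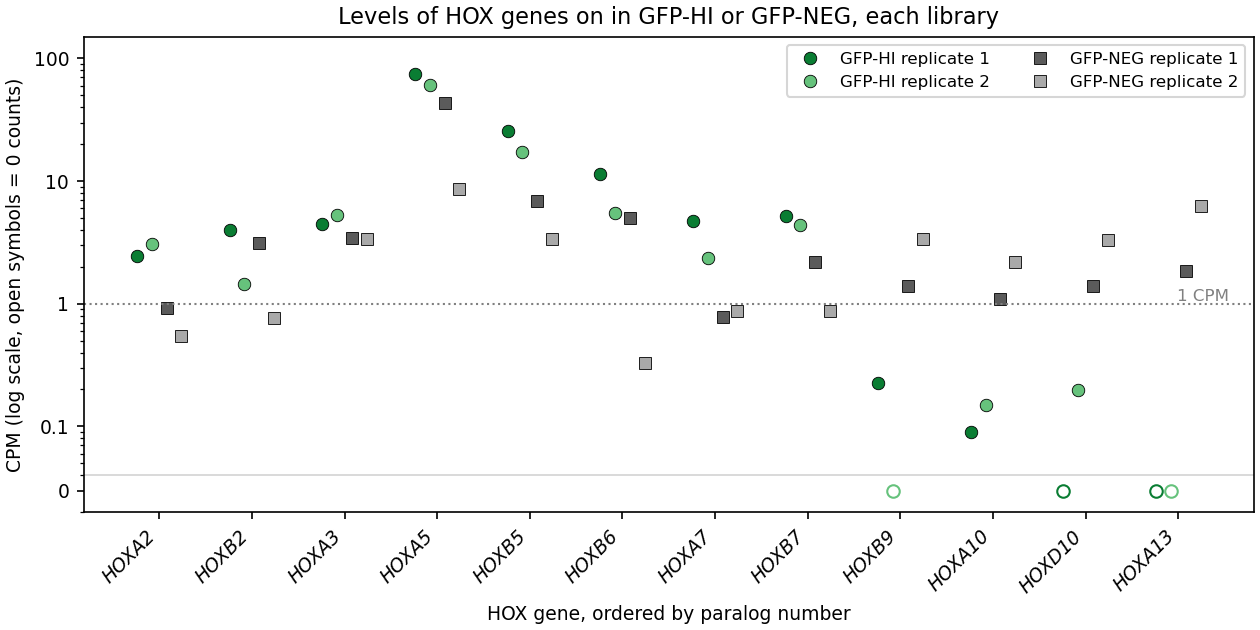
CPM on a log scale of HOX genes on in either group, in each library (circles GFP-HI, squares GFP-NEG, open symbols 0 counts), ordered by paralog number, with the 1 CPM level dotted. GFP-HI lies above GFP-NEG from HOXA5 to HOXB7 and below it from HOXB9 to HOXA13, where HOXA13 is at 0 in both GFP-HI libraries.

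Among the anterior members, which pattern the hindbrain and pharyngeal arches in the embryo, 0 of the 4 tested genes passed the threshold in edgeR or DESeq2, and 0 had an unadjusted p under 0.05. HOXA2 was at 2.45 and 3.07 CPM in GFP-HI and at 0.932 and 0.548 CPM in GFP-NEG, with groups that did not overlap. Its log2 fold change of 1.90 ± 1.27 (SE) had an adjusted p of 0.25 (edgeR). HOXA3 was at 4.44 and 5.30 CPM against 3.42 and 3.40 CPM, a log2 fold change of 0.51 ± 0.95 (SE, adjusted p of 0.72, edgeR). In RefSeq's Sscrofa11.1 models the HOXA3 span overlaps that of HOXA5, and the HOXD9 span overlaps those of HOXD10 and HOXD11. How reads in such overlaps were counted is not given in the sources used here, so the counts of these genes may depend on it.

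HOXB2 overlapped between groups, at 3.99 and 1.44 CPM in GFP-HI and 3.11 and 0.767 CPM in GFP-NEG. Its log2 fold change was 0.51 ± 1.15 (SE, adjusted p of 0.77, edgeR), and -0.30 without GFP-HI replicate 1 and -0.23 without GFP-NEG replicate 2. HOXB3 counts were 26 and 9 (GFP-HI) against 4 and 0 (GFP-NEG). HOXB1, HOXD1 and HOXD3 had 0 counts in both GFP-HI libraries. In GFP-NEG HOXB1 had 0 and 13 counts and HOXD3 had 1 and 11, so replicate 2 held nearly all of them. HOXD1 had 4 and 5 counts in GFP-NEG. Its lower GFP-NEG level was 3.69-fold above the floor of 3 counts in a GFP-HI library, counting error in GFP-NEG left out. DESeq2 did not call HOXD1, HOXB1 or HOXD3 (adjusted p of 0.15, 0.14 and 0.12).

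The posterior members were at or near 0 in GFP-HI. Of these 11 genes, 2 had a count in GFP-HI replicate 1 and 3 in replicate 2, and the highest value was 0.227 CPM. In GFP-NEG 8 and 9 of them had counts, at up to 1.86 CPM in replicate 1 and 6.25 CPM in replicate 2. HOXC12, the single member of cluster C, had 0 counts in all 4 libraries. HOXA11 had 3 and 18 counts in GFP-NEG and HOXD13 had 3 and 20, with 0 in GFP-HI. Both were under the edgeR filter, and DESeq2, which tested them, called them lower in GFP-HI (adjusted p of 0.023 and 0.017). All their counts came from GFP-NEG, the group where they are high, so these p-values support no difference on their own. HOXB13, HOXD9, HOXD11 and HOXD12 had at most 6 counts in any library.

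HOXA13, at the 5′ end of cluster A and known from the digits and the hindgut and genital tract, was not counted in GFP-HI and had 12 and 57 counts in GFP-NEG. The GFP-NEG levels were 1.86 and 6.25 CPM, and the lower of them was 12.5-fold above the same floor, counting error in GFP-NEG left out. The adjusted p for HOXA13 was 5.9e-05 (edgeR), and it lay between 7.4e-05 and 0.023 in the 11 alternative fits in which the gene was tested. HOXB9 was counted 5 and 0 times in GFP-HI against 9 and 31 times in GFP-NEG, with a log2 difference of -4.29 ± 1.41 (SE, adjusted p of 0.0088, edgeR). HOXD10, known from the limb and the spinal cord, was counted 0 and 4 times in GFP-HI against 9 and 30 times in GFP-NEG, with a log2 difference of -4.49 ± 1.43 (SE, adjusted p of 0.0067, edgeR). HOXA10, known from the uterus and other parts of the reproductive tract, was counted 2 and 3 times in GFP-HI against 7 and 20 times in GFP-NEG. Its log2 fold change was -3.70 ± 1.33 (SE, adjusted p of 0.018, edgeR). All 4 genes had their highest value in GFP-NEG replicate 2. They passed the filter through GFP-NEG alone, the group where they are high, so their p-values support no difference on their own.

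With the replicate number as a block, HOXA13 (adjusted p of 5.6e-04) and HOXD10 (0.035) kept their calls in edgeR, while HOXB9 (0.060) and HOXA10 (0.13) lost them. HOXB9 was at -3.24 without GFP-HI replicate 2 (adjusted p of 0.21), at -4.75 without GFP-NEG replicate 1 (0.056) and at -7.75 without GFP-HI replicate 1 (0.047). HOXD10 was at -3.34 without GFP-HI replicate 1 (adjusted p of 0.18), at -7.82 without GFP-HI replicate 2 (0.050) and at -4.93 without GFP-NEG replicate 1 (0.055). HOXA10 lost its call without each of GFP-HI replicate 1 (0.25), GFP-HI replicate 2 (0.21) and GFP-NEG replicate 1 (0.18), and under DESeq2 (0.080). Without GFP-NEG replicate 2, HOXB9, HOXA10, HOXD10 and HOXA13 did not pass the filter. The calls that were kept carry the limit given above, as these 4 genes passed the filter of the main fit through GFP-NEG alone.

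These low values in GFP-NEG were set beside 37 genes listed as restricted to tissues other than lung, such as liver, heart muscle and brain genes. In GFP-NEG 23 and 31 of the 37 had counts, against 17 and 17 in the deeper GFP-HI libraries. Their median was 0.155 and 1.10 CPM in GFP-NEG replicates 1 and 2, where the posterior HOX median was 0.466 and 1.97 CPM, and their 95th percentile was 31.0 and 10.8 CPM. That percentile is no noise floor, as a few of the 37 genes were clearly counted here. APOA1 was at 104 CPM in GFP-NEG replicate 1 and MBP at 77.6 CPM in GFP-NEG replicate 2. No posterior member reached the percentile in any library. Of all 28 members, 0 were above it in both GFP-NEG libraries, and HOXA5 and HOXB5 were above it in both GFP-HI libraries. Among tested genes of the 37, 7 of 16 were lower in GFP-HI by the same test and 1 was higher, against 27.6% and 8.35% of all tested genes. A gene at 0 in both GFP-HI libraries with counts in GFP-NEG was found for 6 of 11 posterior members (54.5%), 11 of the 37 (29.7%) and 23.4% of all genes. The part of such low counts in the calls of posterior HOX genes was not tested.

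**Figure D4:**
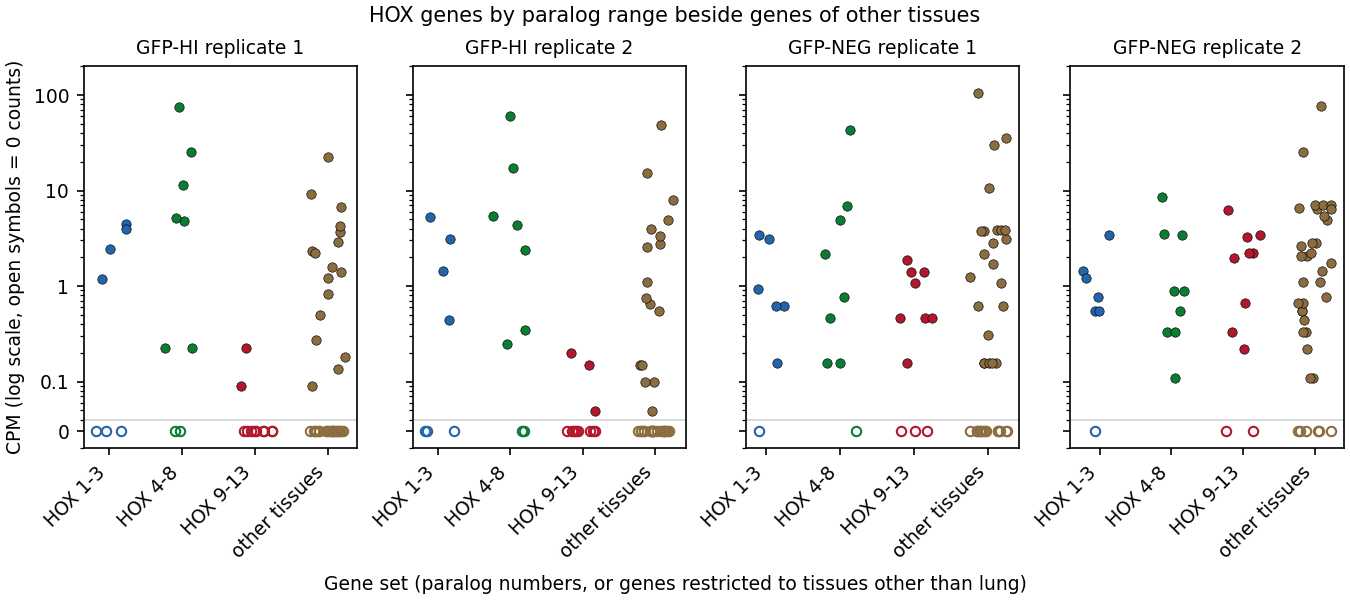
CPM on a log scale (open symbols 0 counts) of anterior, central and posterior HOX genes beside the 37 genes listed as restricted to other tissues, 1 panel for each library and 1 point for each gene. The posterior genes lie at or below 0.227 CPM in GFP-HI and reach 6.25 CPM in GFP-NEG replicate 2, within the range of the other-tissue genes.

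A further 9 HOX genes stood in the tables under Ensembl identifiers only and were named through the gene name table; they were not counted among the 28. They filled in most of cluster C. HOXC4 was at 2.27 and 0.942 CPM in GFP-HI and 0.311 and 0.548 CPM in GFP-NEG. HOXC5 was at 2.90 and 0.793 CPM against 1.86 and 0.767 CPM, and HOXC6 at 0.634 and 0.843 CPM against 2.33 and 3.40 CPM. These 3 were tested and 0 passed the threshold (adjusted p of 0.28, 0.79 and 0.22, edgeR), nor had any an unadjusted p under 0.05. HOXC8, HOXC9, HOXC10, HOXC11 and HOXC13 had 0 counts in both GFP-HI libraries and between 0 and 25 counts in a GFP-NEG library. DESeq2 called HOXC8 (adjusted p of 0.0070) and HOXC10 (0.027) lower in GFP-HI, and both were under the edgeR filter. As both were counted in GFP-NEG alone, these p-values support no difference on their own. HOXA9 counts were 15 and 5 in GFP-HI against 2 and 10 in GFP-NEG, and it was the most 5′ gene of cluster A with more than 3 counts in each GFP-HI library. HOXA4 and HOXA6 are not analysed here.

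HOX proteins bind DNA together with homeodomain proteins of the PBX, MEIS and PKNOX families. Of 9 such cofactor genes, 5 rose in GFP-HI and 0 fell in edgeR and in DESeq2, where edgeR called 8.35% of all tested genes higher and 27.6% lower, with a median log2 fold change of 1.78 against -0.25 over all tested genes. MEIS2 was at 54.2 and 71.7 CPM in GFP-HI and at 9.47 and 3.73 CPM in GFP-NEG. Its log2 fold change was 3.26 ± 0.57 (SE, adjusted p of 5.7e-07, edgeR), and it kept its call in all 12 alternative fits. MEIS1 was at 330 and 311 CPM against 113 and 26.3 CPM, a log2 fold change of 2.20 ± 0.64 (SE, adjusted p of 0.0027). PBX3 (2.14) and PKNOX2 (1.78) also rose, and each had both GFP-HI libraries above both GFP-NEG libraries. Without GFP-NEG replicate 2, MEIS1 was at 1.46, PBX3 at 1.51 and PKNOX2 at 1.75, with adjusted p-values between 0.17 and 0.41 (edgeR). MEIS3 (1.91, adjusted p of 0.14, and 0.049 with the block), PKNOX1 (0.97), PBX4 (0.22) and PBX2 (-0.31) did not pass.

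Few genes that keep HOX clusters active or silent passed the threshold. Trithorax and Polycomb proteins maintain the active and the silent state of HOX clusters, and of 30 such genes tested, 0 rose and 1 fell, against 8.35% and 27.6% of all tested genes, with a median log2 fold change of 0.27 (edgeR). At an unadjusted p under 0.05 these numbers were 2 and 2, and DESeq2 called 0 and 1. The gene that fell was KDM6B, which removes the Polycomb mark from histone H3, at 7.88 and 4.41 CPM in GFP-HI and 18.5 and 19.4 CPM in GFP-NEG (log2 fold change -1.62 ± 0.63 SE, adjusted p of 0.032, edgeR). KMT2A, the founding Trithorax gene of mammals (0.48), and EZH2, the Polycomb methyltransferase (-0.69), did not pass. The CDX genes, which act upstream of HOX genes in the tail end of the embryo and in the gut, resembled the posterior HOX genes in level. CDX4 was not counted in GFP-HI and had 8 and 41 counts in GFP-NEG (adjusted p of 1.4e-04, edgeR). The lower GFP-NEG level of CDX4 was 8.35-fold above the same floor, counting error in GFP-NEG left out. CDX1 had 2 and 1 counts against 11 and 59 (adjusted p of 7.2e-04, edgeR). Both CDX genes passed the filter through GFP-NEG alone, so they too had to differ. EVX1 and EVX2, the homeobox genes at the 5′ ends of clusters A and D, had 0 counts in GFP-HI, and in GFP-NEG EVX1 had 1 and 3 and EVX2 had 0 and 0.

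Several transcription factors that mark lung and its mesenchyme by position rose in GFP-HI. Of 7 such genes, 5 rose and 0 fell, against 8.35% and 27.6% of all tested genes (edgeR). Their median log2 fold change was 1.67, against -0.25 over all tested genes, and DESeq2 called 2 higher and 0 lower. TBX5, a T-box gene of the heart, forelimb and lung fields, was at 136 and 117 CPM in GFP-HI and 71.7 and 8.22 CPM in GFP-NEG (log2 fold change 1.67 ± 0.55 SE, adjusted p of 0.0093, edgeR). FOXF1, a forkhead gene of lung mesenchyme, was at 173 and 77.9 CPM against 48.4 and 11.7 CPM (2.06, adjusted p of 0.0010). TBX3 (1.86), TBX4 (1.77) and TBX2 (1.28) were the others. TBX2 was called in only 3 of 12 alternative fits, with an adjusted p of 0.15 with library size alone and 0.20 under DESeq2. Without GFP-NEG replicate 2 these 5 lay between 0.42 (TBX2) and 1.33 (FOXF1) with adjusted p-values between 0.38 and 0.83, and without GFP-NEG replicate 1 between 3.37 (TBX2) and 4.16 (TBX3). NKX2-1, the lung epithelial identity gene, was at 3.90 and 0.0496 CPM against 5.28 and 1.53 CPM and did not pass, nor did GATA6 (-0.14).

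Fibroblast markers differed between the same libraries. The 7 markers summed to 63342 and 55869 CPM in GFP-HI and to 20024 and 6783 CPM in GFP-NEG, so GFP-NEG replicate 1 held 2.95 times as much as replicate 2, and none was at 0. COL1A1 (19484 and 11907 CPM) and COL1A2 (30096.5 and 23559 CPM) made up most of the GFP-HI sums. Of the 7, edgeR called 5 higher and 0 lower in GFP-HI, against 8.35% and 27.6% of all tested genes. COL1A1 and COL1A2 were not among the 5 (adjusted p of 0.36 and 0.46, edgeR). DESeq2 called 6 higher and 0 lower. These included COL1A1 (adjusted p of 0.0035) and COL1A2 (0.016) but not TCF21 (0.43), which edgeR had called. HOXA5 was 5.03 times, HOXB5 2.01 times, HOXB6 15.1 times and TBX5 8.72 times as high in GFP-NEG replicate 1 as in replicate 2, while HOXA3 (1.01) and HOXA7 (0.885) were not. Within replicate 1, GFP-HI over GFP-NEG was 1.73 for HOXA5, 3.72 for HOXB5 and 3.16 for the summed fibroblast markers. Within replicate 2 it was 7.13, 5.08 and 8.24. Single markers varied around the sum within replicates 1 and 2, with PDGFRA at 8.46 and 24.8 and TCF21 at 1.36 and 44.3. The central HOX genes together stood at 2.08 and 4.91. In sorted bulk samples, fewer fibroblasts and less HOX RNA per fibroblast cannot be told apart.

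**Figure D5:**
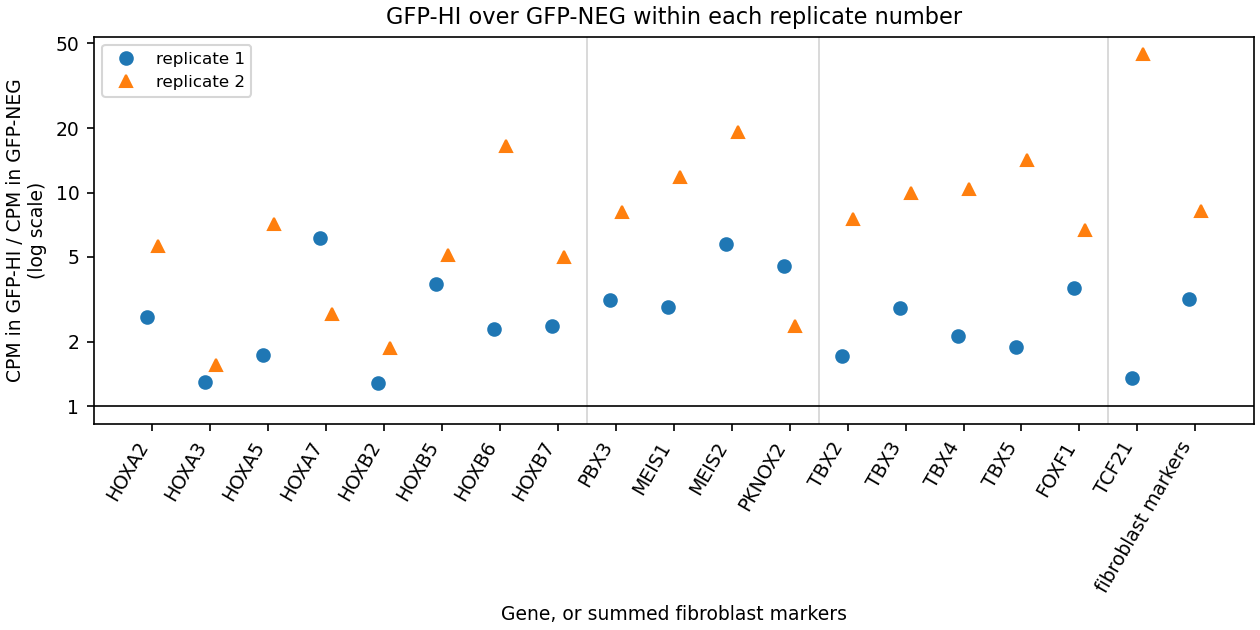
CPM in GFP-HI divided by CPM in GFP-NEG (log scale) within replicate 1 (circles) and replicate 2 (triangles) for the 8 HOX genes on in GFP-HI, 4 cofactors that rose, lung position genes that rose, TCF21 and the summed fibroblast markers. Every ratio shown is above 1, and replicate 2 is the higher for all but HOXA7 and PKNOX2.

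Markers of other cell classes that passed the threshold were, with 1 exception, higher in GFP-NEG, and the part of these cells in the HOX values was not tested. Of all tested genes, 27.6% were called lower and 8.35% higher in GFP-HI (edgeR), the shares to set beside the counts here. The 8 immune markers summed to 245 and 389 CPM in GFP-HI and 1382 and 2049 CPM in GFP-NEG, with 5 lower in GFP-HI. The 6 endothelial markers summed to 175 and 174 CPM against 1275 and 543 CPM, with all 6 lower. The 10 epithelial markers summed to 367 and 367 CPM against 826 and 220 CPM, with 3 lower, close to the share of all tested genes. The 6 smooth muscle and pericyte markers summed to 1639 and 2395 CPM against 2501 and 365 CPM, with 1 higher and 3 lower. One of the lower, DES, overlapped between groups and lost its call with the replicate block (adjusted p of 0.075) and under DESeq2 (0.20). None of these markers was at 0 in both libraries of a group. Of the 2 erythroid markers found, ALAS2 was at 0 in GFP-HI and HBB had 2 and 0 counts there against 66 and 48 in GFP-NEG. WT1, the only mesothelial marker found, was counted 0 and 2 times in GFP-HI against 0 and 24 times in GFP-NEG.

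The authors' deposited table of the comparison lists 9 of the 28 members, all of them anterior or central. It gives HOXB5 a log2 fold change of 2.06 with an adjusted p of 0.012, the only one of the 9 under 0.05. In the authors' deposited table HOXA5 has a log2 fold change of 1.40 with an adjusted p of 0.11 and HOXA7 of 2.10 with 0.16.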

How the data were processed

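Gene expression was measured by RNA sequencing (Illumina Nextera XT libraries, per the labels' protocols) in 4 libraries of sorted lung cells. The authors deposited raw whole-number counts of the genes, 1 table a library, with totals between 6292253 and 24689986. The submitters' processing notes name featureCounts, Subread 1.5.2 and DESeq2 1.37.6 with no role, and the aligner, strand setting and build are not given in the sources used here. The authors' deposited comparison table adds log2 fold changes and p-values for 16250 genes, and its count columns were identical to the single tables. Its 4 columns of normalized values were not used, as some of their headings, which name pig 1 or pig 2, appear to sit on the values of other libraries.

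Counts were tested with edgeR 4.0.16 in R 4.3.3 (glmQLFit and glmQLFTest, TMM, filterByExpr, group as the only term), and DESeq2 1.42.0 served as an alternative. The filter kept 19682 genes with 99.8% of counts; with these depths it needs 0.64 CPM, before TMM scaling, in 2 libraries. A threshold of 0.05 on the adjusted p was used. Standard errors were taken from the log2 fold change and the F statistic. The procedure was tested on simulated data, where 2.56% of the calls of the main fit were false. It recovered 7% of genes given a log2 change of 2 and 31.6% of those given a change of 3. The simulation changed few genes, gave all genes a common dispersion and placed changes only in genes above a minimum expected count. Its figures need not hold for these members, many of which have low counts. A member that did not pass the threshold may still differ. File headers name pig 1 and pig 2, and same-numbered libraries were taken as 1 animal. The main fit left this pairing out, and the block fit used it. The deviations from the group means of same-numbered libraries correlated with an r of 0.19 across genes. Members on in either group or past the threshold are given in full, and other genes come from fixed lists. Members and lists were chosen with earlier results of these data known. No sequence of these genes was used here, and some genes of these lists are not reported by name or value.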

Additional observations from a re-analysis of the deposited data

How the results depend on the processing

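The number of HOX genes called higher was 2 and of those called lower 4. Higher calls numbered 1 with library size alone, upper-quartile scaling, the filter of 10 counts in 2 libraries, DESeq2 and GFP-HI thinned to the GFP-NEG depth. With the replicate block they numbered 3. Over all genes, higher calls were 888 of 19682 tested with library size alone and 1083 of 19682 with upper-quartile scaling. They were 951 of 17690 with the filter of 10 counts, 1354 of 24178 with DESeq2 and 1198 of 16519 with thinning. The block gave 1707 of 19682. Lower calls numbered 6 with no filter and with DESeq2, where 27 and 22 members were tested, and 2 with the block. They numbered 1 with the filter of 10 counts and with thinning, where fewer members were tested (10 and 9). Over all genes, lower calls were 6136 of 26737 tested with no filter, 6024 of 24178 with DESeq2 and 4793 of 19682 with the block. They were 3182 of 17690 with the filter of 10 counts and 3616 of 16519 with thinning. Leaving out single libraries gave 0 to 3 higher and 0 to 4 lower calls; a lone library was then assumed to vary like the others. HOXB2, not called in any fit, ran from -0.30 to 1.86 over the fits that left out a library, with -0.23 without GFP-NEG replicate 2. The block changed the calls of HOXA10, HOXB6 and HOXB9 and of no other HOX gene. The median over tested genes, -0.25 on the log2 scale, was -0.68 with library size alone and -0.58 with upper-quartile scaling.

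The genes on in GFP-HI numbered 8, and 3 at 5 CPM and 2 above the 95th percentile of the other-tissue genes, which is no noise floor. In GFP-NEG they numbered 8, and 13 at 0.5 CPM, 1 at 5 CPM and 0 above that percentile. A single library in place of both gave 8 to 9 in GFP-HI and 11 to 13 in GFP-NEG. With library size alone the sum of cluster A in GFP-HI was 69.3 CPM, and the anterior sums were 10.4 (GFP-HI) and 12.7 CPM (GFP-NEG). The GFP-NEG depth limits what can be tested: 1 count is worth 0.155 or 0.110 CPM there.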
